A study of Homo sapiens with 8 samples.

Results

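Described here are 52 genes of the neuronal cytoskeleton and of the synaptic vesicle, followed over the 3 substrates as read counts summed per gene. They come from a list of gene symbols that was chosen with earlier results of these data known. All 52 were found among the 58217 genes to which counts could be assigned, and all 52 passed the filter on low counts that left 18201 genes for testing. By role they comprise 7 microtubule and growth cone genes, RTN1 of the neuronal endoplasmic reticulum, 3 neurofilament genes, 5 genes of neuronal RNA-binding proteins, 2 endosomal genes, 11 genes of the vesicle membrane and surface, 6 genes of SNAREs and complexins, 7 active zone and Rab3 genes, 2 dynamins, 4 granins and 4 genes of transmitter synthesis and loading.

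The cells were oligodendrocyte progenitor cells (OPCs) derived from the H9 line of human embryonic stem cells and kept in OPC medium for 2 days on 1 of 3 coatings, with no forced expression of SOX10 in any group. Matrigel, the control, is a basement membrane extract, VN is recombinant vitronectin, and VNP2 is a peptide designed by computation from the integrin-binding stretch of vitronectin and coated through a mussel adhesive protein. Polyadenylated RNA gave 8 libraries, namely Matrigel replicates 2 and 3 (n = 2), VN replicates 1 to 3 (n = 3) and VNP2 replicates 1 to 3 (n = 3), and these n apply to every value given here. All libraries came from 1 cell line, and neither the labels nor the methods say whether replicates were separate cultures, so p-values measure only the spread between these samples.

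Library depth was even, at 37997896 to 39429453 estimated counts. The median chi-square of gene counts was at least 0.712 between replicates, where sampling alone gives 0.455, so no replicate pair was a copy of the same library. These values do not tell separate cultures from repeat libraries of 1 culture. VN replicate 1 stood apart from the other VN libraries (2.35 and 2.75, against 0.781 between those 2). Of the OPC markers, OLIG2 was present at 1643 to 2116 normalized counts in every library, whereas SOX10 reached at most 4.88. Over all libraries OLIG1 had 1506 to 2110 normalized counts, NKX2-2 581 to 792, PDGFRA 503 to 650 and CSPG4 119 to 226. PTPRZ1 had 12941 to 21861, SOX6 751 to 1220 and LHFPL3 only 23.4 to 52.8. Most of the listed OPC markers were thus present while SOX10 was at or near 0, and transcripts of neurons were found in the same RNA. In bulk RNA, a larger share of neuron-like cells and more neuronal RNA per cell cannot be told apart.

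A neuron that leaves the cell cycle first builds a microtubule and growth cone skeleton with stathmins, doublecortin and GAP43, and then adds neurofilaments, which set axon calibre. Transmitter is loaded into vesicles, which are docked and primed at the active zone by UNC13 and RIM proteins, fused by SNAREs under the control of synaptotagmins, and retrieved by dynamin, while peptides are stored in separate dense-core granules with granins. In the ventral neural tube, progenitors with OLIG2 give rise first to motor neurons and later to OPCs. Many of these genes are held silent outside neurons by the repressor REST, which binds a site called RE1.

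Promoter letters were examined because several members moved together. RefSeq promoter windows (GRCh38.p14, 250 bases before to 50 bases after a gene's start, read along the gene's strand) matched 39 of the 52 members, with 80 windows among 35116. The left arm of the RE1, TTCAGCACC, was found on either strand in 0.376% of all windows and in windows of SCG3, SYN1 and UNC13A. The right arm, GGACAGCGC, was found in 0.581% of all windows and in those of BSN, SCG3 and UNC13A. Both arms stood in only 7 of the 35116 windows (0.0199%), among them SCG3 and UNC13A, and in both genes 8 bases separated the arms. A joined core, CAGCACC followed after 2 bases by GGACAG, was found in 18 windows (0.0513%), among them GAD2 and SYN1, and in SYN1 it overlaps the left arm. The 5 windows with matched letters are printed with those letters in capitals. A match describes letters and does not show that a protein was bound. All 5 genes were called higher on VN and on VNP2, as were 12 on VN and 15 on VNP2 of the 34 members with a window and no match, and the letters were chosen with these results known.

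The windows lie at chr19:17688305-17688604 on the minus strand for UNC13A, chr15:51681253-51681552 on the plus strand for SCG3, chrX:47619808-47620107 on the minus strand for SYN1, chr10:26216122-26216421 on the plus strand for GAD2 and chr3:49554227-49554526 on the plus strand for BSN. In UNC13A the letters read on the opposite strand and lie across the gene's start, from 11 bases before it. In SCG3 they lie just after the start, in SYN1 they begin 233 bases before it, in GAD2 79 bases and in BSN 121 bases before it.
UNC13A: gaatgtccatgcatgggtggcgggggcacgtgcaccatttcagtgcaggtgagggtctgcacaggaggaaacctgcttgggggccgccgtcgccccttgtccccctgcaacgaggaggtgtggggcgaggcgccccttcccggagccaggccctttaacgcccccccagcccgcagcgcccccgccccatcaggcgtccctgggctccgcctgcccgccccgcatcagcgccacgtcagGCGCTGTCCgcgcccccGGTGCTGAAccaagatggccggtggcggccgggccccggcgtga
SCG3: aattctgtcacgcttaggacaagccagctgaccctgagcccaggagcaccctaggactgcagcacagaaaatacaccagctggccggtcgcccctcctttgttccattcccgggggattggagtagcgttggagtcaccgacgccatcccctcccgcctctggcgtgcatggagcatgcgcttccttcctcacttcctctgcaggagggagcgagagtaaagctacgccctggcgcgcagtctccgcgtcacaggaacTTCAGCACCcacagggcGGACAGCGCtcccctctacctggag
SYN1: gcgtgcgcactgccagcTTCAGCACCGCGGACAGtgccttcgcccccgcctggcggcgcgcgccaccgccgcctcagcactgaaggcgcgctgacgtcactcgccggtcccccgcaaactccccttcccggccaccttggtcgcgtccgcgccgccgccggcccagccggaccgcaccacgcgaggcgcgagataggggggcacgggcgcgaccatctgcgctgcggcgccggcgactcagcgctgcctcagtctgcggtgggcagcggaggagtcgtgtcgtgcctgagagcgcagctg
GAD2: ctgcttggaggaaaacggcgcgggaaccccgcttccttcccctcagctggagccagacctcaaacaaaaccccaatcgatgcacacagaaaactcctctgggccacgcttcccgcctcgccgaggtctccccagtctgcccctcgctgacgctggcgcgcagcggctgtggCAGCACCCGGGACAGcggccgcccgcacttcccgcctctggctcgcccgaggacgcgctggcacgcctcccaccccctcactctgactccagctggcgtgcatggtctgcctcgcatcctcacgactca
BSN: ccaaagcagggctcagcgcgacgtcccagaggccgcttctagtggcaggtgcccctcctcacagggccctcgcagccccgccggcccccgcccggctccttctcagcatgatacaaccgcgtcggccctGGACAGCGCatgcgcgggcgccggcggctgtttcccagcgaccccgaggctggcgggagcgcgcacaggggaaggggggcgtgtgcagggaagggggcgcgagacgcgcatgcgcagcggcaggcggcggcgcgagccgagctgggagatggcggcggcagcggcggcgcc

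The first question was which of the 52 genes differed between substrates. Most of those that differed were higher on VN and VNP2 than on Matrigel, and the 10 that differed in every pair were higher on VN than on Matrigel and higher again on VNP2: STMN2, STMN4, DCX, RTN1, NEFM, INA, SYT4, UNC13A, SCG3 and CHGB. On VN, 23 members were called higher and 1 was called lower at an adjusted p under 0.05 (edgeR quasi-likelihood test, Benjamini-Hochberg), where the shares of all tested genes were 5.81% higher and 9.41% lower. On VNP2, 29 members were called higher than on Matrigel, where 7.45% of all tested genes were, and 0 were called lower, where 9.13% were. At an unadjusted p under 0.05 edgeR placed 1 member lower on VNP2, VAMP1, and both DESeq2 and limma also called 0 lower.

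Between VNP2 and VN, 13 members were called higher on VNP2 and 1 lower, beside 3.07% and 2.1% of all tested genes. Across the 3 substrates 29 members were called, beside 19.3% of all tested genes. Genes called higher in all 3 pairs made up 0.423% of those tested. The median log2 fold change of the members was 0.24 for VN and 0.37 for VNP2 against Matrigel and 0.18 for VNP2 against VN, and over all tested genes it was 0.008, 0.003 and -0.003. Both comparisons with Matrigel share its 2 libraries, so they are given side by side and not as evidence for each other. Because the list was chosen with earlier results of these data known, the values over all genes are a description beside it and not a test.

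Of the 24 calls on VN, 13 were kept without Matrigel replicate 2 and 15 without Matrigel replicate 3, and of the 14 between VNP2 and VN, 9 were kept without VNP2 replicate 3. Of the calls made, 12 of 24 on VN, 20 of 29 on VNP2 and 8 of 14 between VNP2 and VN were kept whichever library was left out. Where a call below was not kept, the library and the value without it are given.

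**Figure D1:**
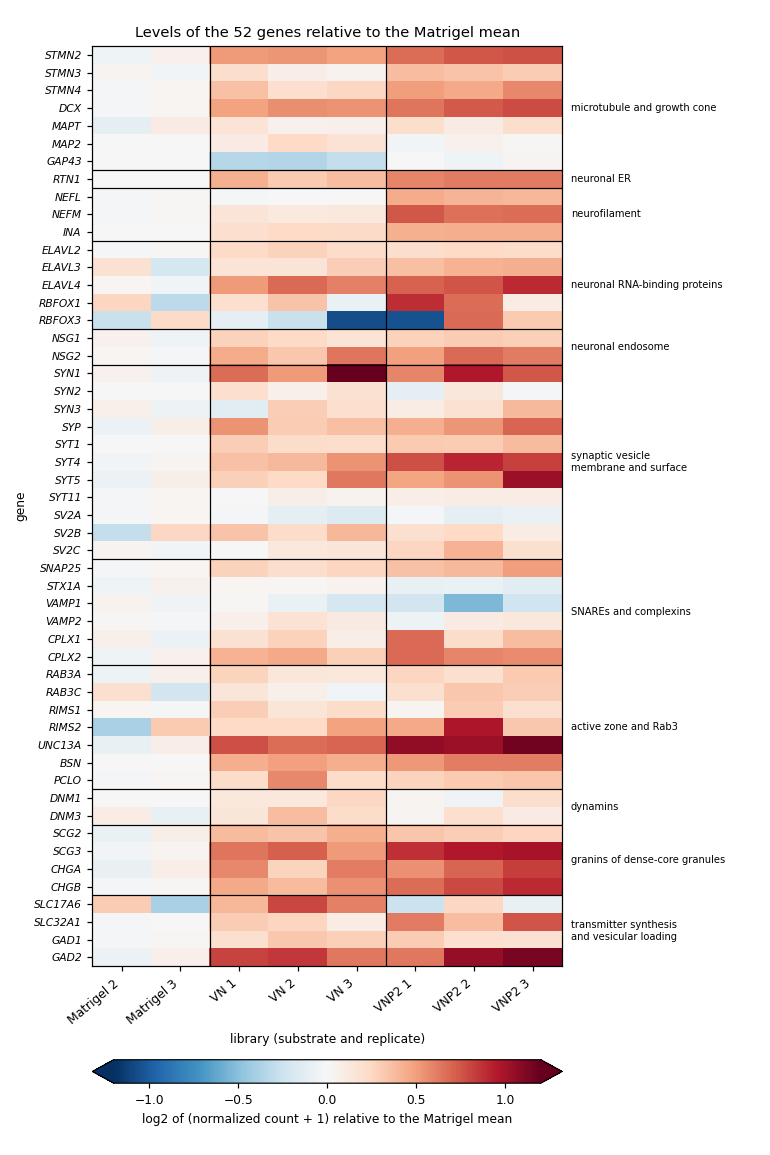
Heat map of the 52 genes (rows, grouped by role) in the 8 libraries (columns), coloured by the log2 of the normalized count plus 1 relative to the Matrigel mean, from blue (lower) to red (higher). Most rows turn red on VN and deeper red on VNP2, the GAP43 row is blue on VN alone, and the rows of RBFOX3 and SLC17A6 vary among replicates.

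Of the 7 microtubule and growth cone genes, STMN2, STMN4 and DCX were called higher in every pair. STMN2, whose product binds tubulin in growth cones, lies on chromosome 8 (79610814 to 79666175, GRCh38). Its normalized counts were 4599 and 4925 on Matrigel, 6775, 6877 and 6642 on VN, then 7569, 7960 and 8071 on VNP2. The 3 groups did not overlap. STMN2 was higher on VN by a log2 fold change of 0.51 ± 0.04 (SE; adjusted p = 3.56e-05) and on VNP2 by 0.72 ± 0.04 (adjusted p = 1.96e-06), and VNP2 exceeded VN by 0.22 ± 0.04 (adjusted p = 0.00857). DCX, which bundles microtubules in migrating young neurons and lies on chromosome X (111293779 to 111412429), followed the same steps. DCX had 8387 and 8683 normalized counts on Matrigel, 11917, 12535 and 12402 on VN, then 13364, 14173 and 14669 on VNP2. The gain over Matrigel was 0.53 on VN and 0.72 on VNP2 (adjusted p = 3.27e-05 and 2.41e-06). The step from VN to VNP2 was 0.20 (adjusted p = 0.017) and was lost without VNP2 replicate 2 or 3 (adjusted p = 0.0562 and 0.0687).

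The 2 other stathmins were also highest on VNP2. STMN4 had 1160 and 1193 normalized counts on Matrigel, 1358 to 1497 on VN and 1616 to 1754 on VNP2, with gains of 0.27 and 0.51 (adjusted p = 0.0138 and 0.000219). Its call on VN was lost without Matrigel replicate 2 or 3 (adjusted p = 0.111 and 0.0735), and the call of 0.24 between VNP2 and VN was lost without VN replicate 2 or 3 or VNP2 replicate 1 or 3 (adjusted p = 0.0797 to 0.105). STMN3 had 5000 and 4799 normalized counts on Matrigel, 5033 to 5662 on VN and 6058 to 6316 on VNP2. It was called on VNP2 (0.34, adjusted p = 0.00124) and not on VN (0.11, adjusted p = 0.184). The difference of 0.23 between VNP2 and VN (adjusted p = 0.0163) was lost without VN replicate 2 or 3 or VNP2 replicate 1 or 2 (adjusted p = 0.0547 to 0.0717).

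GAP43 and MAP2 went other ways. GAP43, a membrane protein of growth cones, had 2878 and 2860 normalized counts on Matrigel, 2261, 2255 and 2359 on VN, then 2870, 2763 and 2926 on VNP2. All VN libraries lay below the others, while VNP2 and Matrigel overlapped. GAP43 was thus lower on VN than on Matrigel by a log2 fold change of -0.32 ± 0.04 (adjusted p = 0.000736) and higher on VNP2 than on VN by 0.32 ± 0.04 (adjusted p = 0.00102), with -0.01 on VNP2 against Matrigel (adjusted p = 0.928). MAP2, which stabilises dendritic microtubules, had 19639 and 19891 normalized counts on Matrigel, 21179 to 23390 on VN and 19283 to 20425 on VNP2. Its gain on VN was 0.17 (adjusted p = 0.0228) and the fall from VN to VNP2 was -0.17 (adjusted p = 0.0351). Both rest on few libraries: the first was lost without Matrigel replicate 2 or 3 or VN replicate 2 or 3 (adjusted p = 0.0606 to 0.141), and the second was kept only without VN replicate 1 (adjusted p = 0.0547 to 0.138 without any other library). MAPT, which encodes tau of axonal microtubules, was called in no pair, with 1044 to 1207 normalized counts on Matrigel, 1165 to 1263 on VN and 1208 to 1305 on VNP2.

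RTN1, a reticulon of the neuronal endoplasmic reticulum, rose in both steps. Its normalized counts were 1964 and 1979 on Matrigel, 2654, 2458 and 2545 on VN, then 2958, 3028 and 3031 on VNP2, with no overlap. The log2 fold change was 0.37 ± 0.05 on VN (adjusted p = 0.0004), 0.61 ± 0.05 on VNP2 (adjusted p = 8.63e-06) and 0.24 ± 0.04 between them (adjusted p = 0.00668), and every call was kept whichever library was left out.

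**Figure D2:**
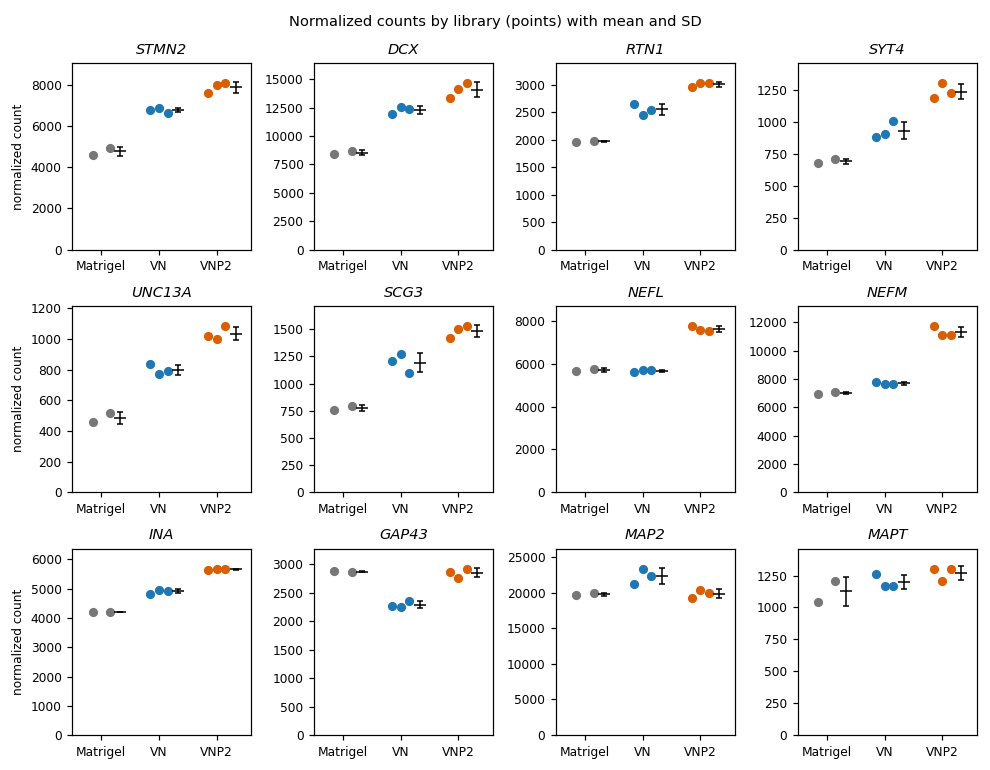
Normalized counts (y axis, from 0) of 12 genes in each library (points) by substrate (x axis), with the mean and SD beside the points. STMN2, DCX, RTN1, SYT4, UNC13A, SCG3 and INA climb from Matrigel to VN to VNP2, NEFL lies higher on VNP2 only, and GAP43 lies lower on VN only.

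The neurofilament genes separated VNP2 from both other substrates. NEFL, the light chain on which the filament assembles, had 5640 and 5760 normalized counts on Matrigel, 5617, 5709 and 5688 on VN, then 7760, 7545 and 7505 on VNP2. VN and Matrigel overlapped and every VNP2 library lay above both. The log2 fold change of NEFL was -0.01 ± 0.03 on VN (adjusted p = 0.915), 0.42 ± 0.03 on VNP2 (adjusted p = 1.72e-05) and 0.42 ± 0.03 between VNP2 and VN (adjusted p = 4.84e-05). NEFM, the middle chain, lies beside NEFL on chromosome 8, at 24913012 to 24919098 where NEFL spans 24950955 to 24957110. NEFM had 6954 and 7060 normalized counts on Matrigel, 7818, 7624 and 7628 on VN, then 11751, 11102 and 11132 on VNP2. Its gain on VNP2 was 0.69 ± 0.04 (adjusted p = 8.35e-07), of which 0.56 ± 0.03 lay between VN and VNP2 (adjusted p = 1.45e-05). The small gain of NEFM on VN, 0.13 (adjusted p = 0.0347), was lost without Matrigel replicate 2 or 3, VN replicate 2 or 3 or VNP2 replicate 2 or 3 (adjusted p = 0.0504 to 0.199), and without length offsets it was 0.08 (adjusted p = 0.255).

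INA, which encodes alpha-internexin and lies on chromosome 10, rose in 2 nearly equal steps. It had 4198 and 4207 normalized counts on Matrigel, 4831, 4969 and 4937 on VN, then 5645, 5669 and 5690 on VNP2, and the groups did not overlap. The log2 fold changes were 0.23 on VN (adjusted p = 0.0016), 0.43 on VNP2 (adjusted p = 1.27e-05) and 0.21 between them (adjusted p = 0.00288). All these calls were kept whichever library was left out.

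Of the RNA-binding protein genes, the ELAVL (Hu) genes, whose products stabilise neuronal messages, moved and the RBFOX splicing factors did not pass the threshold. ELAVL4 had 604 and 627 normalized counts on Matrigel, 876 to 990 on VN and 1006 to 1148 on VNP2. It rose by 0.60 ± 0.08 on VN (adjusted p = 0.000617) and 0.79 ± 0.08 on VNP2 (adjusted p = 6.56e-05). ELAVL2 rose by 0.25 on VN and 0.22 on VNP2 (adjusted p = 0.00184 and 0.00247), from 3126 and 3206 normalized counts on Matrigel to 3685 to 3831 on VN and 3674 to 3727 on VNP2. ELAVL3 had 2235 and 1694 on Matrigel, so its 2 control libraries were far apart, 2186 to 2413 on VN and 2520 to 2655 on VNP2. Its call on VNP2 (0.41, adjusted p = 0.0157) was lost without Matrigel replicate 3 (0.22, adjusted p = 0.113), and without Matrigel replicate 2 it was larger (0.62, adjusted p = 0.000847). RBFOX1 held 33.4 to 78.3 normalized counts, RBFOX3, which encodes the nuclear antigen NeuN of mature neurons, had a mean of 15.2 on Matrigel and 11.1 on VN, and neither was called in any pair.

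NSG1 and NSG2 encode endosomal proteins that carry receptors in neurons, and both rose on both substrates. NSG1 had 1216 and 1312 normalized counts on Matrigel, 1419 to 1528 on VN and 1534 to 1558 on VNP2, with gains of 0.23 and 0.29 (adjusted p = 0.0206 and 0.00512). NSG2 had 165 and 171 on Matrigel, 210 to 263 on VN and 237 to 269 on VNP2, with gains of 0.47 and 0.60 (adjusted p = 0.0262 and 0.0068). Without Matrigel replicate 3 neither gene was called on VN (adjusted p = 0.195 and 0.146) or on VNP2 (0.0765 and 0.0607). The VN call of NSG1 was also lost without VN replicate 2 (adjusted p = 0.0552), and that of NSG2 without Matrigel replicate 2 or VN replicate 3 (0.11 and 0.0736).

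Among the 11 genes of the vesicle membrane and surface, 4 were called higher on VN, 5 on VNP2 and 1 on VNP2 against VN. SYT4, a synaptotagmin of dense-core and Golgi-derived vesicles that lies on chromosome 18 (43267878 to 43277650), changed in every pair. Its normalized counts were 677 and 705 on Matrigel, 880, 903 and 1003 on VN, then 1182, 1302 and 1223 on VNP2. The groups did not overlap. The log2 fold change of SYT4 was 0.43 ± 0.07 on VN (adjusted p = 0.00382), 0.84 ± 0.07 on VNP2 (adjusted p = 2.82e-05) and 0.41 ± 0.06 between them (adjusted p = 0.00432).

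The vesicle markers SYT1, SYP and SYN1 were also called higher on both substrates. SYT1, the fast calcium sensor of release, had 2861 in both Matrigel libraries, 3311 to 3505 on VN and 3533 to 3729 on VNP2, with gains of 0.24 and 0.33 (adjusted p = 0.0046 and 0.000449). SYP, which encodes synaptophysin, had 473 and 523 normalized counts on Matrigel, 615 to 725 on VN and 675 to 807 on VNP2. Its gains were 0.41 and 0.56 (adjusted p = 0.0222 and 0.00346), and the first was lost without Matrigel replicate 2 or 3 (adjusted p = 0.172 and 0.0654). SYN1, which encodes the vesicle-tethering synapsin I, had 171 and 186 normalized counts on Matrigel, 256, 286 and 448 on VN, then 270, 300 and 350 on VNP2. Both substrates lay above Matrigel, but VN replicate 3 stood far above the other VN libraries. The gains of SYN1 were 0.87 ± 0.22 on VN (adjusted p = 0.0227) and 0.78 ± 0.22 on VNP2 (adjusted p = 0.0324). Without transcript length offsets the gain on VN was 0.43 (adjusted p = 0.011). Both were lost without Matrigel replicate 2 or 3 (adjusted p = 0.102 to 0.179), and that on VNP2 also without VNP2 replicate 2 or 3 (adjusted p = 0.0936 and 0.0687).

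SYT5, a synaptotagmin of large vesicles, had 181 and 200 normalized counts on Matrigel, 225 to 295 on VN and 265 to 391 on VNP2. It was called on VNP2 (0.70, adjusted p = 0.0258), and the call was lost without Matrigel replicate 2 or 3 or VNP2 replicate 3 (adjusted p = 0.0584 to 0.168). The remaining 6 were called in no pair. SYT11, a synaptotagmin that does not bind calcium, was the most abundant at 10922 to 11876 normalized counts over all libraries, and SV2A, the vesicle protein to which levetiracetam binds, had 3061 to 3486. SYN2 had 86.5 to 108, SYN3 80.1 to 115, SV2B 89.1 to 144 and SV2C 340 to 463 normalized counts.

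SNAREs and complexins differed from each other. SNAP25, the neuronal SNARE of the plasma membrane, had 393 and 406 normalized counts on Matrigel, 463 to 485 on VN and 511 to 568 on VNP2, without overlap. It was called on VNP2 (0.42 ± 0.08, adjusted p = 0.0039) and missed the threshold on VN (0.25 ± 0.08, adjusted p = 0.0543). CPLX2, a complexin that clamps and promotes fusion, rose by 0.39 on VN and 0.61 on VNP2 (adjusted p = 0.0223 and 0.00158), from 210 and 226 normalized counts to 266 to 300 and 324 to 349. The CPLX2 call on VN was lost without Matrigel replicate 2 or 3 or VN replicate 2 (adjusted p = 0.0685 to 0.157). CPLX1 did not pass on VNP2 (0.44, adjusted p = 0.0724) or elsewhere. STX1A, VAMP1 and VAMP2, the other SNAREs of the list, were called in no pair. VAMP1 had the lowest value of the members on VNP2, -0.33 ± 0.11 (adjusted p = 0.0779), with 377 and 400 normalized counts on Matrigel and 267 to 332 on VNP2.

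In the active zone, the priming factor UNC13A had the largest log2 fold change of all 52 members on VNP2. UNC13A, whose promoter window holds both arms of the RE1, spans 17601328 to 17688365 of chromosome 19. Its normalized counts were 458 and 515 on Matrigel, 834, 774 and 790 on VN, then 1017, 1003 and 1086 on VNP2, with wide gaps between the groups. UNC13A rose by 0.71 ± 0.08 on VN (adjusted p = 0.000144) and by 1.09 ± 0.07 on VNP2 (adjusted p = 4.54e-06), which is 2.13-fold, and VNP2 exceeded VN by 0.37 ± 0.06 (adjusted p = 0.00662). All 3 calls were kept whichever library was left out. BSN, the scaffold protein bassoon, had 1191 and 1180 normalized counts on Matrigel, 1606 to 1673 on VN and 1703 to 1818 on VNP2, and rose by 0.46 and 0.58 (adjusted p = 0.00025 and 3.03e-05). Its large relative PCLO (piccolo) missed the threshold on VN (0.35, adjusted p = 0.0596) and on VNP2 (0.30, adjusted p = 0.0905).

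RAB3A, the vesicle-bound GTPase, was called on VNP2 (0.26, adjusted p = 0.0473) with 496 and 542 normalized counts on Matrigel and 594 to 647 on VNP2. The call was kept only without VN replicate 1 and lost without any other library (adjusted p = 0.0552 to 0.289). RAB3C, RIMS1 and RIMS2 were called in no pair. RIMS2 had 140 and 229 normalized counts in the 2 Matrigel libraries, and only 0.446 of the counts it has in the authors' table were captured by matched transcripts. The dynamins, which pinch off vesicles, were not called either: DNM1 had 2327 and 2357 normalized counts on Matrigel and 2269 to 2786 on the other substrates, and DNM3 had 264 to 364 over all libraries.

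All 4 granins, acidic proteins that form the core of dense-core granules, were higher on both VN and VNP2. SCG3, which carries granins to the granule membrane, lies on chromosome 15 (51681353 to 51721031). It had 754 and 793 normalized counts on Matrigel, 1207, 1270 and 1101 on VN, then 1422, 1504 and 1532 on VNP2. The groups did not overlap. SCG3 rose by 0.62 ± 0.07 on VN (adjusted p = 0.000263) and 0.94 ± 0.07 on VNP2 (adjusted p = 9.82e-06). VNP2 exceeded VN by 0.32 (adjusted p = 0.014), and this was lost without VNP2 replicate 3 (adjusted p = 0.0613).

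CHGB, which encodes secretogranin I, had 390 and 398 normalized counts on Matrigel, 514 to 577 on VN and 629 to 735 on VNP2. Its log2 fold changes were 0.46 on VN, 0.80 on VNP2 and 0.33 between them (adjusted p = 0.0058, 0.00013 and 0.0301). The VN call was lost without Matrigel replicate 2 (adjusted p = 0.0536), and the third was lost without VN replicate 2 or VNP2 replicate 2 or 3 (adjusted p = 0.0849 to 0.12). CHGA, the precursor of vasostatin and related peptides, had 214 and 240 normalized counts on Matrigel, 273 to 349 on VN and 333 to 403 on VNP2, with gains of 0.50 and 0.70 (adjusted p = 0.029 and 0.00431). Its VN call was lost without Matrigel replicate 2 or 3 or VN replicate 1 or 3 (adjusted p = 0.0527 to 0.195) and its VNP2 call without Matrigel replicate 2 (0.0548). SCG2, which encodes secretogranin II, rose by 0.39 on VN and 0.30 on VNP2 (adjusted p = 0.00849 and 0.0272), from 359 and 398 normalized counts to 480 to 512 and 454 to 477. Without Matrigel replicate 2 neither SCG2 call was kept (adjusted p = 0.0903 and 0.209), and that on VNP2 was also lost without any 1 VNP2 library (adjusted p = 0.0545 to 0.0786).

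Of the transmitter genes, 2 of GABA were called higher on VNP2. GAD2, 1 of 2 enzymes that make GABA, had 148 and 162 normalized counts on Matrigel, 241, 273 and 279 on VN, then 241, 324 and 342 on VNP2. GAD2 rose by 0.77 ± 0.16 on VN (adjusted p = 0.00869) and 0.96 ± 0.16 on VNP2 (adjusted p = 0.00187), and the VN call was lost without Matrigel replicate 2 (0.70, adjusted p = 0.0793). Without length offsets the gains of GAD2 were 0.41 and 0.63 (adjusted p = 0.0379 and 0.00334). SLC32A1, which loads GABA and glycine into vesicles, had 135 and 136 on Matrigel, 145 to 168 on VN and 176 to 230 on VNP2. It was called on VNP2 (0.60, adjusted p = 0.0164), and the call was lost without Matrigel replicate 2 or 3 or VNP2 replicate 3 (adjusted p = 0.0579 to 0.0931). GAD1, the other enzyme, missed the threshold on VN (0.27, adjusted p = 0.0577) and VNP2 (0.23, adjusted p = 0.0917). SLC17A6, the vesicular glutamate transporter VGLUT2, had 7.2 to 17.7 normalized counts per library, and its difference between VN and Matrigel had a standard error of 0.40 around 0.66.

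**Figure D3:**
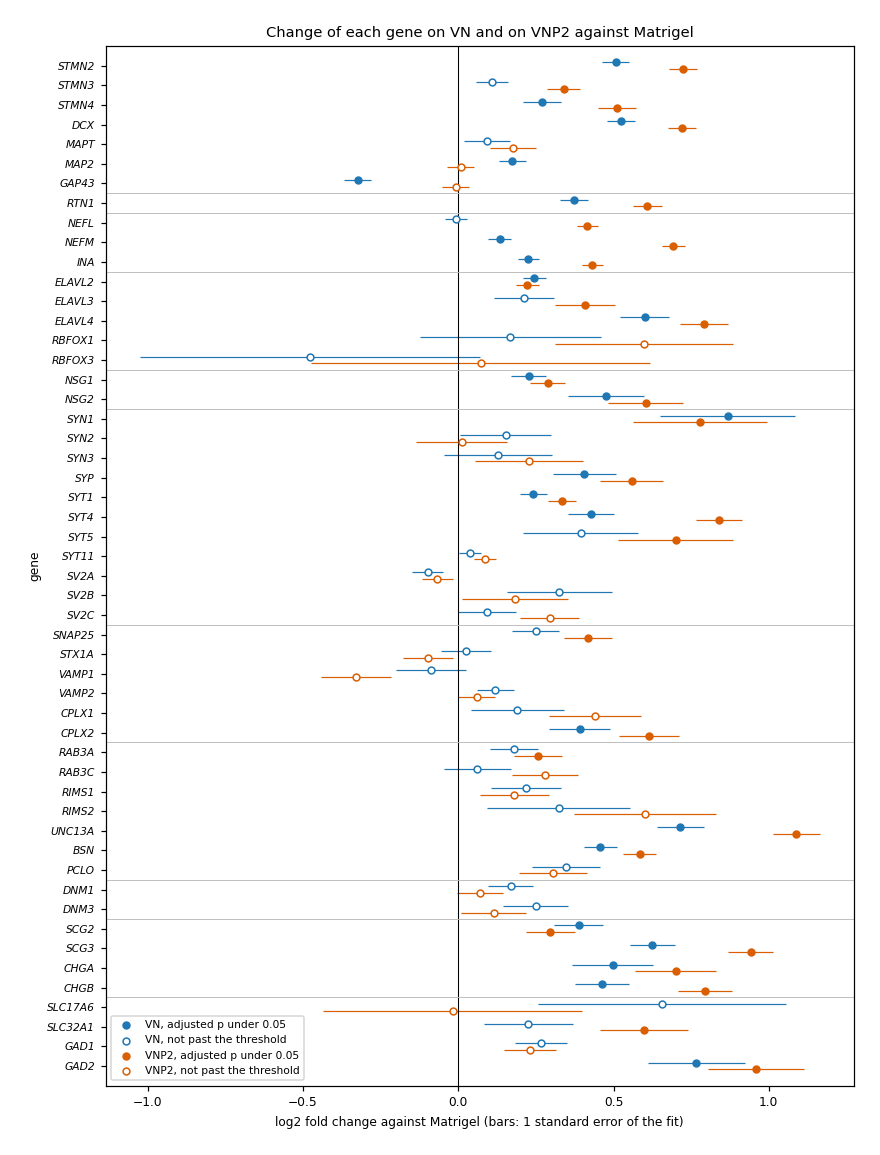
Log2 fold change of each of the 52 genes (rows, grouped by role) on VN (blue) and VNP2 (orange) against Matrigel, with bars of 1 standard error and filled points past the threshold. UNC13A is farthest to the right on VNP2 at 1.09, GAP43 is the single filled point left of 0, and the widest bars belong to RBFOX3 and SLC17A6.

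Levels per transcript length, in TPM (transcript counts scaled by length to a fixed total), spanned a wide range among the members. MAP2 was the most abundant member at a mean of 198 TPM over the 8 libraries, followed by STMN2 at 152, STMN3 at 115, SYT11 at 99.1 and NEFM at 97.3. In all, 27 members were at 10 TPM or more, and 4 were below 1 TPM, namely SV2B (0.972), RBFOX1 (0.709), RBFOX3 (0.327) and SLC17A6 (0.192). UNC13A, with the largest change, was at 2.02 TPM on Matrigel and 4.49 TPM on VNP2. The summed level of the 52 members was 1323 and 1341 TPM on Matrigel, 1587 to 1638 TPM on VN and 1749 to 1808 TPM on VNP2, so the 3 substrates did not overlap in this sum.

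The same transcript led in every library for 42 of the 52 members, and in 15 of them it held over 90% of the gene's TPM in every library. The leading transcript of STMN2 held at least 99.8% in every library and that of MAP2 61.1 to 62.9%. In SYN1 the leading transcript was not the same in every library, and its share ran from 32.8 to 74.1%. These shares are Salmon's estimates, and those of low genes vary among replicates.

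**Figure D4:**
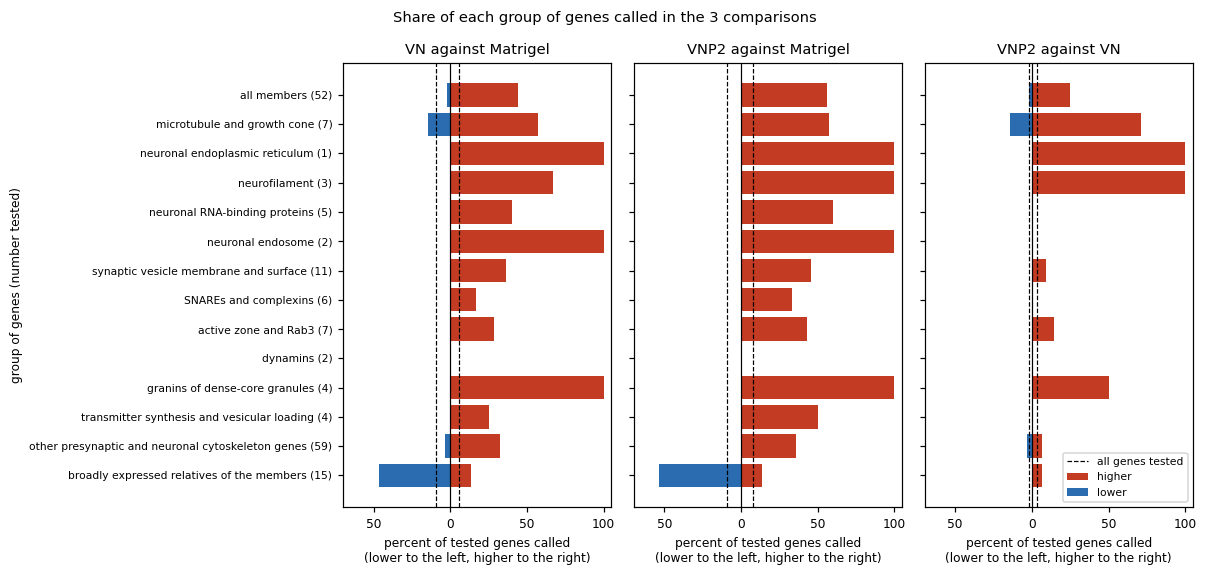
Percent of the tested genes called higher (red, to the right) and lower (blue, to the left) for each role group, all members, 59 other presynaptic and neuronal cytoskeleton genes and 15 broadly expressed relatives, in the 3 comparisons, with dashed lines at the percent of all tested genes. Against Matrigel, the 4 granins and 2 endosomal genes reach 100% on VN and VNP2, and the relatives are mostly on the blue side. Between VNP2 and VN, 1 relative is called higher and 0 lower.

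Beside the members, a list of 60 other presynaptic and neuronal cytoskeleton genes had 59 tested, of which VN raised 19 and lowered 2 past the threshold and VNP2 raised 21. Of all tested genes, 5.81% were called higher and 9.41% lower on VN, and 7.45% and 9.13% on VNP2. The median log2 fold change of the 59 was 0.18 on VN and 0.21 on VNP2. The largest called gains on VNP2 were those of RPH3A, a Rab3 effector at 5.81 normalized counts on Matrigel and 14.4 on VNP2 (1.30, adjusted p = 0.0403), PCSK2, a convertase that matures peptide hormones (1.14, adjusted p = 1.55e-06), and SLC18A3, the vesicular acetylcholine transporter (0.94, adjusted p = 1.9e-05). PCSK2 had means of 577 on Matrigel, 1003 on VN and 1275 on VNP2. The 2 that fell on VN were VGF (-0.43, adjusted p = 0.012), a granin-like peptide precursor, and RAB3B (-0.26, adjusted p = 0.0219). Between VNP2 and VN, 4 of the 59 were called higher and 2 lower, beside 3.07% and 2.1% of all tested genes. The falls included SYT2, a synaptotagmin (-0.83, adjusted p = 0.00856). SLC6A5, the glycine transporter of inhibitory neurons, was at 0 in every Matrigel library and at most 2.22 elsewhere.

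Broadly expressed relatives of the members mostly went the other way. Of 16, 15 were tested, and VN lowered 7 and raised 2 past the threshold and VNP2 lowered 8 and raised 2. The shares of all tested genes were 9.41% lower and 5.81% higher on VN, and 9.13% and 7.45% on VNP2. VIM and NES in this list are filaments of progenitors and are counted again among the neural progenitor markers below. STMN1 is also counted among the other presynaptic and neuronal cytoskeleton genes above. Their median log2 fold change was -0.16 on VN and -0.20 on VNP2. MAP4, the microtubule protein of dividing cells, fell by 0.35 on VN and 0.39 on VNP2 on the log2 scale (adjusted p = 5.98e-05 and 1.85e-05), and vimentin (VIM), the intermediate filament of progenitors, fell by 0.46 and 0.24 (adjusted p = 1.02e-05 and 0.000731). The relatives that rose were STMN1, a stathmin of progenitors and young neurons (0.25 and 0.17, adjusted p = 0.00185 and 0.011), and RTN3 (0.18 and 0.13, adjusted p = 0.00352 and 0.0134).

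REST, the repressor that binds the RE1, was level, with 3051 to 3179 normalized counts on Matrigel, 2841 to 3314 on VN and 2967 to 3195 on VNP2. Its log2 fold change was 0.00 ± 0.06 on VN (adjusted p = 0.996) and -0.02 ± 0.06 on VNP2 (adjusted p = 0.878). Of the 13 genes of the REST complex and neuronal splicing, 4 were called higher on VN and 3 on VNP2, beside 5.81% and 7.45% of all tested genes. The largest was SRRM4, a neuronal splicing factor, whose mean went from 959 on Matrigel to 1454 on VN and 1528 on VNP2 (0.60 and 0.67, adjusted p = 0.000563 and 0.000187), followed by NOVA1 (0.30 and 0.40) and PTBP2 (0.26 and 0.20). EHMT2 was the fourth on VN (0.14, adjusted p = 0.031). Whether REST protein or its activity differed was not measured.

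Markers of cell types moved too, and their part in the members' values was not tested. For every marker list below, the shares of all tested genes were 5.81% higher and 9.41% lower on VN. On VNP2 they were 7.45% and 9.13%. Of 11 tested transcription factors of committed neurons, 5 were called higher on VN and 8 on VNP2, led on VNP2 by NEUROD1 (1.38), MYT1L (1.32) and NEUROD4 (1.25). Their summed level was 54.9 to 55.7 TPM on Matrigel, 82.4 to 91.5 on VN and 85.0 to 88.8 on VNP2, and TBR1, a marker of cortical neurons, had at most 8.79 normalized counts. That sum did not separate VNP2 from VN, but it rests largely on INSM1, with means of 46.6 TPM on VN and 42.0 on VNP2. Gene by gene, 7 of the 11 had a positive log2 fold change on VNP2 against VN, and 0 were called. The smallest adjusted p between VNP2 and VN was 0.0551 for NEUROG1, which was lower on VNP2 (-0.84). MYT1L was higher on VNP2 than on VN (0.82, adjusted p = 0.0741). Of 7 tested spinal motor neuron and interneuron markers 2 were called higher on VN and 3 on VNP2, and the sum was 21.0 to 22.1 TPM on Matrigel, 30.0 to 34.3 on VN and 29.7 to 33.6 on VNP2, while MNX1, LHX3 and PAX2 were among those too low to test.

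Of 8 tested OPC markers 4 were called higher on VN and 7 on VNP2, beside 5.81% and 7.45% of all tested genes. Their sums were 224 to 227 TPM on Matrigel, 292 to 306 on VN and 319 to 343 on VNP2. These sums rest largely on PTPRZ1, with means of 108 TPM on Matrigel, 151 on VN and 178 on VNP2. SOX6 was called in no pair (-0.355 on VNP2, adjusted p = 0.117). OPC markers and the members therefore rose on the same substrates. Matched transcripts held only 0.787 of the counts of PTPRZ1 and 0.516 of those of SOX6 in the authors' table, so the OPC sums are partial. Of 7 tested neural progenitor markers 2 were called higher and 2 lower on each of VN and VNP2, and PAX6 had at most 8.84 normalized counts. The sums were 3511 to 3587 TPM on Matrigel, 2992 to 3047 on VN and 3272 to 3322 on VNP2. They rest largely on VIM, which was called lower on both, with means of 2530, 1950 and 2250 TPM. Those called higher were HES5 and SOX9 on VN and FABP7 and SOX9 on VNP2. NOTCH1, among these 7 and called in no pair, kept only 0.00818 of its counts in the authors' table, so its level was not captured. Of 4 tested neural crest and peripheral neuron markers 1 was called higher on each substrate, and not the same one. It was POU4F1 on VN (1.03, adjusted p = 0.0162) and TFAP2A on VNP2 (1.0, adjusted p = 0.00695). POU4F1 was called lower on VNP2 than on VN (-1.22, adjusted p = 0.00783). The sums of this list were 4.03 to 6.48 TPM over all libraries. Of 7 mesenchymal markers VN gave 3 calls higher and 1 lower and VNP2 gave 5 higher and 1 lower, with COL1A1 the 1 that fell (-0.53 and -1.41), and sums of 500.0 to 509 TPM on Matrigel, 569 to 606 on VN and 491 to 528 on VNP2. Of 6 pluripotency markers VN gave 1 call in each direction and VNP2 gave 1 higher and 4 lower, with sums of 93.0 to 98.0, 84.7 to 87.4 and 76.5 to 79.7 TPM. Of 3 tested astrocyte markers 1, GJA1, was called lower on both (-0.82 and -0.59), and GFAP and AQP4 were too low to test. The astrocyte sums were 192 to 202, 115 to 125 and 134 to 144 TPM. GJA1 made up nearly all of them, with means of 193, 116 and 135 TPM.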

How the data were processed

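RNA-seq of H9-derived OPCs after 2 days on Matrigel (n = 2), VN (n = 3) and VNP2 (n = 3) was used, grouped by the labels. The authors trimmed reads with Trim Galore and quantified GENCODE v32 transcripts (GRCh38.p13) with Salmon. The deposited estimated counts per transcript are neither whole nor normalized, and the deposited TPM of the authors are Salmon's abundances. A gene table of the authors, a signal made of DESeq2 1.27.12 normalized counts, served for 1 alternative.

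Transcripts were matched by identifier to GENCODE v29, which held 98.79 to 98.88% of the counts, and were summed per gene. For 50 of the 52 members the mean lay within 1% of the authors' table, and ELAVL4 (0.854 of it) and RIMS2 (0.446) lost counts. Of the marker genes, NOTCH1 (0.00818), SOX6 (0.516) and PTPRZ1 (0.787) lost counts too. Counts were rounded, filtered with filterByExpr (minimum count 10, minimum total 15) and fitted in 1 edgeR 4.0.16 quasi-likelihood model (R 4.3.3) of all 8 libraries with TMM, transcript length offsets and no block. Tests were two-sided, with Benjamini-Hochberg adjustment over 18201 genes within each comparison and calls at an adjusted p under 0.05. Normalized counts are counts divided by the length offset and library size. Intervals and standard errors cover these libraries only, and a gene with few counts has wide ones.

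The members and lists (60 other presynaptic genes, relatives, the REST complex and splicing genes, and 8 lists of cell type markers) were chosen with earlier results of these data known. VIM, NES, STMN1, NOVA1 and SOX10 stand in more than a single list. All 52 members are named; of the other lists, at most the 3 largest rises and falls among called genes and those near 0 are, and some of these are not reported here. Alternatives were DESeq2 1.42.0, RLE, no length offsets, no filter, a replicate block, only the 2 substrates compared, limma 3.58.1 on log2(x + 1) of the authors' gene table, and leaving out each library. The scripts (Python 3.11.15, pandas 2.3.3) were tested on simulated data.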

Additional observations from a re-analysis of the deposited data

How the results depend on the processing

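The counts of members called stayed within 1.5 times of the values given under DESeq2, RLE normalization, no length offsets, no filter, only the 2 substrates compared and limma on the authors' normalized counts, at 19 to 26 on VN, 27 to 30 on VNP2, 13 to 14 between VNP2 and VN and 29 to 32 across the 3 substrates. With each library left out they ran from 14 to 25 on VN, 23 to 30 on VNP2, 9 to 14 between VNP2 and VN and 21 to 29 across the substrates, where a lone Matrigel library is assumed to vary like the other groups. The counts of 14 and 15 on VN without a Matrigel replicate and of 9 between VNP2 and VN without VNP2 replicate 3 moved by more than 1.5 times, and these fits hold fewer samples. No member called under the model given changed sign under any of these alternatives. Over all members, called or not, 2191 single values kept their state, which includes the uncalled values that stayed uncalled. Of the other values, 95 lost a call, 25 gained one and 29 uncalled values changed sign. With only the 2 substrates compared, NEFM, NSG1, NSG2, CPLX2 and CHGA lost their calls on VN and MAP2 its call between VNP2 and VN. Without length offsets NEFM and NSG2 lost theirs on VN and DCX and MAP2 theirs between VNP2 and VN, whereas ELAVL3, SNAP25, RAB3C and GAD1 were called on VN and MAPT and RAB3C on VNP2, RAB3C also against VN. Without the filter NEFM lost its call on VN (adjusted p = 0.0537) and SCG2 its call on VNP2, as it did under DESeq2 (adjusted p = 0.0566 and 0.0567). RAB3A lost its call on VNP2 without length offsets, without the filter, with the replicate block, under DESeq2 and with limma (adjusted p = 0.0537 to 0.0794). The causes were not tested.

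Replicate numbers are shared between substrates, but same-numbered libraries did not deviate together (correlations of -0.045 to 0.0164). With so few libraries per group these correlations cannot exclude a shared batch, and the labels name none. With the replicate block 27 members were called on VN, 29 on VNP2, 14 between VNP2 and VN and 29 across the substrates. Matrigel had 2 libraries, so its spread rests largely on the shared estimate.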
